A study of Mus musculus with 3 samples.

Results

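The TRIM (tripartite motif) family was described in the cytosol of mouse macrophages that had been stimulated with lipid A, the membrane-anchored component of bacterial endotoxin sensed by Toll-like receptor 4. Its members were taken as all protein-coding genes whose symbol is Trim followed by a number and at most 1 letter, which gave 68 genes among 22028 protein-coding and 55536 annotated genes. All 68 had a row in the gene tables. The cells were bone marrow-derived macrophages of the mouse strain C57BL/6J. The dose was 100 ng/ml and the stimulation lasted 60 min. RNA of the cytosol was depleted of ribosomal RNA and sequenced, with 1 µg of starting RNA per library. The 3 libraries, biological replicates 1, 2 and 3, formed the only group, so levels are described within stimulated cells and no response to lipid A was measured. The age and sex of the mice were not recorded. The labels gave 1 donor entry for all 3 libraries. Each library had its own biosample, and nothing says that the cultures came from different mice. The p-values therefore reflect the spread of these libraries alone, and that spread may be technical.

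TRIM proteins share a RING finger, a feature of most members that gives them ubiquitin ligase activity, followed by B-box domains and a coiled coil. They differ in the C-terminal part, which is often a PRY-SPRY domain that binds the target and is in other members a bromodomain, NHL repeats or a COS box. In macrophages the family is known for tuning signalling from Toll-like and RNA-sensing receptors and for blocking viruses, and many of its genes are induced by interferon.

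The libraries held 63944236, 71989793 and 69305836 counts on annotated genes in replicates 1, 2 and 3. The 68 TRIM genes took 102386, 105101 and 103548 of these, which is 0.160, 0.146 and 0.149%. All 8 macrophage markers lay above the median gene, led by Lyz2, while the summed TPM (a transcript abundance scaled by length and depth) of 6 T and NK cell markers was 0.04 to 0.1 and that of 4 measured B cell markers 0.330 to 0.620. Of 8 neutrophil markers 3 reached a mean of 1 TPM, led by S100a9 at 15.9 ± 1.96 TPM (SD, n = 3), with Mpo and Ly6g at 0.113 and 0.0233 TPM. Of 5 stroma and endothelium markers only Kdr did so, at 2.28 ± 1.05 TPM. The part of these cells in the TRIM values was not tested. In such bulk samples fewer cells that express a gene and less of its RNA per cell cannot be told apart. The TPM of each of the 30 TRIM genes with a mean of at least 1 TPM was highest in replicate 1, where protein-coding genes took 33.2% of all TPM, against 22.0 and 24.0% in replicates 2 and 3. The median protein-coding gene of at least 1 TPM likewise stood at 9.08, 5.76 and 6.86 TPM. Levels were therefore set against each library's median gene, and libraries were compared on counts scaled to depth.

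Sequences of the promoter windows are shown for the expressed members whose window held an interferon-response motif. RefSeq promoter windows of GRCm38.p6, from 250 bases before the start of transcription to 50 after it, were found for 53 of the 68 members and for 21 of the 30 members that reached a mean of 1 TPM. The core of the interferon-stimulated response element, GAAA followed by any 2 bases and GAAA again, was searched on both strands. It was present in the windows of 9 of the 53 members, compared with 4.03% of 16522 protein-coding genes with a window. Among the expressed members it was found in 8 of the 11 that are known to be interferon-inducible in leukocytes (Trim5, Trim12a, Trim12c, Trim21, Trim26, Trim30a, Trim30d and Trim34a) and in 0 of the 10 others. Trim25, Trim30c and Trim56, the rest of the 11, had no match. Some of the 8 are copies with near-identical sequence, so they do not count as independent matches. The ninth match was in Trim2. The matches and their surroundings follow, in the direction of each gene, and capitals mark the letters that match. Longer stretches are shown where they end before the annotated gene.
Trim30a, chr7:104465200-104465249, minus strand: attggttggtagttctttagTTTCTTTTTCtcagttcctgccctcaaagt
Trim30d, chr7:104507861-104507910, minus strand: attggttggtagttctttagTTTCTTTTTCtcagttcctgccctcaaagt
Trim5, chr7:104288126-104288175, minus strand: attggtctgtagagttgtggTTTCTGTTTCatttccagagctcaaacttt
Trim12a, chr7:104315466-104315495, minus strand: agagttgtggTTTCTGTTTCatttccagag
Trim12c, chr7:104353359-104353388, minus strand: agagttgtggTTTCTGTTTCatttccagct
Trim34a, chr7:104244457-104244486, plus strand: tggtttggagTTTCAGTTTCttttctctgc
Trim21, chr7:102565447-102565476, minus strand: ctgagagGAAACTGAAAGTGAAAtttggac
Trim26, chr17:36836966-36837021, plus strand: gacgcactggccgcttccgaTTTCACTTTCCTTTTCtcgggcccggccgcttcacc

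The stretches of Trim30a and Trim30d were identical over all 50 bases. Over the 50 bases around the match, Trim5 and Trim12a were identical as well, and Trim12c differed from both at 2 of 50. Trim21 and Trim26 each held 2 overlapping matches. The first base of the match lay 36, 41 and 49 bases before the start in Trim30a, Trim30d and Trim5, and at base 11 after it in Trim12a and Trim34a. A second RefSeq window of Trim30a, at an internal start, held a match at base 3. A form of the kappa B site, GGGA followed by any 4 bases and CC, was found for 10 of 53 members against 26.0% of all genes, and the interferon gamma activated site, TTCNNNGAA, for 6 of 53 against 9.02%. Both were searched on both strands. Trim28 and Trim27 were among the holders of the kappa B form, and Trim30c was the only expressed member with TTCNNNGAA. A match describes letters in a window and is no measurement of binding.

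A mean of at least 1 TPM was reached by 30 of the 68 members, where 41.4% of all protein-coding genes reached it. The members spanned a wide range: 10 had at least 10 TPM, 8 lay between 5 and 10, 12 between 1 and 5, 8 between 0.2 and 1, and 30 under 0.2 TPM. Trim16 was the only one of the 30 that did not reach 1 TPM in every library. The median of the 30 was 6.93 TPM, beside 7.24 TPM for all 9123 protein-coding genes of at least 1 TPM. By known role, 12 of 15 interferon-inducible members were expressed at this level, as were 3 of 4 transcriptional co-regulators. By contrast 0 of 4 muscle members, 0 of 2 erythroid members, 0 of 8 germline, embryo or oocyte members and 0 of 3 neuronal members were. Roles were assigned from general knowledge of the family. Of the 15 interferon-inducible members, 10 form the chromosome 7 cluster described below, 7 of them expressed. The rest are Trim14, Trim21, Trim25, Trim26 and Trim56.

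**Figure D1:**
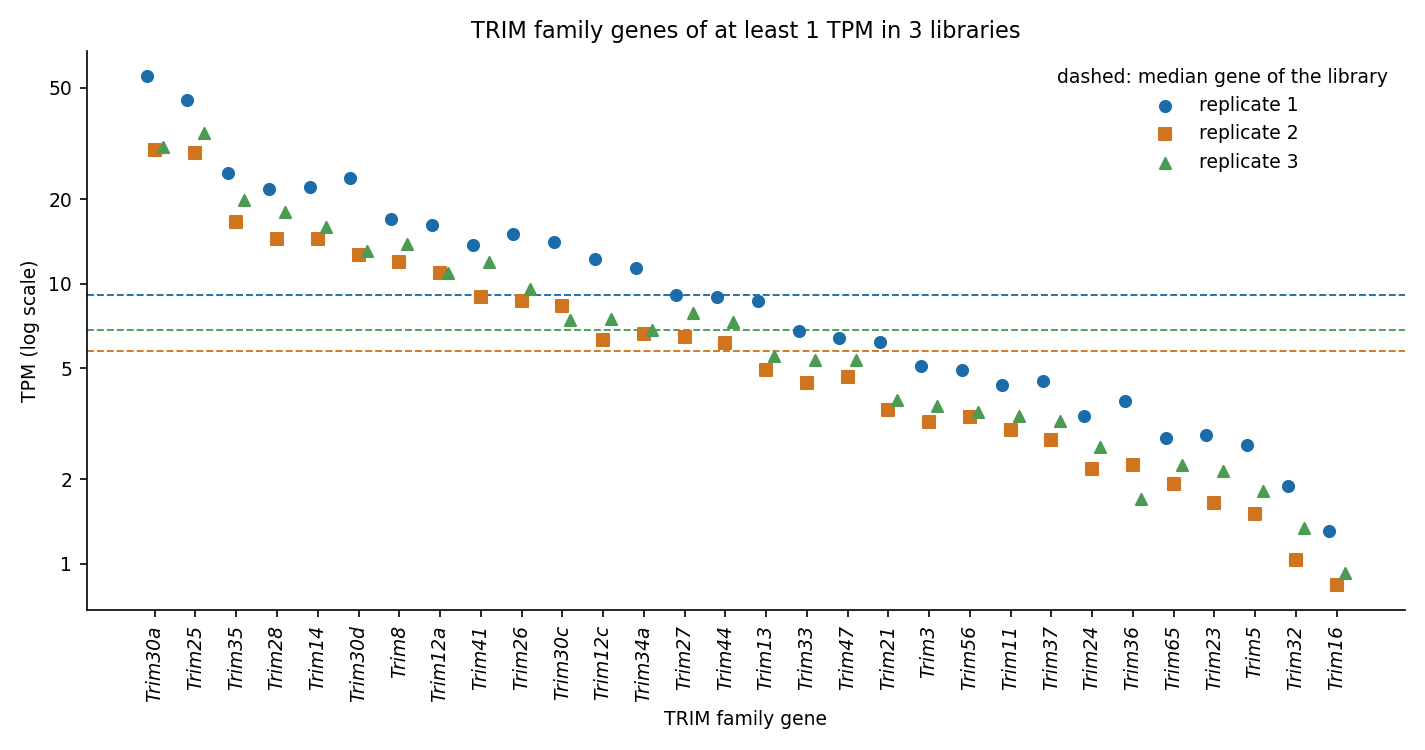
TPM (log scale) of the 30 TRIM family genes with a mean of at least 1 TPM, in the order of their means. Each point is 1 library, and dashed lines give the median gene of each library (9.08, 5.76 and 6.86 TPM), which is also highest in replicate 1.

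Trim30a and Trim25 led the family. Trim30a (chr7:104409025-104465193, minus strand, GRCm38) restrains Toll-like receptor signalling in mice by promoting the loss of Tab2 and Tab3. Its TPM was 55.0 in replicate 1, 29.9 in replicate 2 and 30.7 in replicate 3. Trim25 (chr11:88999376-89020293, plus strand), the ligase that attaches ubiquitin chains to the RNA sensor RIG-I, stood at 45.2, 29.4 and 34.6 TPM. The order of these 2 genes was not the same in all libraries, since Trim30a was the higher one in replicates 1 and 2 and Trim25 in replicate 3, and their mean difference of 0.05 on the log2 scale was smaller than its SD of 0.23. In the second set of tables the means were 17.0 ± 2.05 TPM for Trim30a and 19.9 ± 2.51 TPM for Trim25 (SD, n = 3). Together the pair took 36.2, 35.4 and 34.9% of all TRIM counts.

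Trim35 (chr14:66297031-66311424, plus strand), described as a regulator of the transcription factor IRF7, came next at 24.9, 16.5 and 19.9 TPM. Trim28 (chr7:12999114-13031035, plus strand) encodes KAP1, the corepressor that KRAB zinc finger proteins recruit to silence chromatin, and stood at 21.7, 14.5 and 17.97 TPM. Trim14 (chr4:46493781-46536141, minus strand), a member without a RING finger that acts as an adaptor of MAVS at mitochondria, stood at 22.1, 14.4 and 15.99 TPM. Trim35 was above Trim28 in all 3 libraries, by 0.18 ± 0.03 (SD) on the log2 scale, whereas Trim28 and Trim14 changed places between libraries. Trim14 shared 38.0% of its exonic bases with Nans on the opposite strand, which had 7.01 ± 2.17 TPM. Strandedness of the counting was not given in the sources used here, so the level of Trim14 is uncertain.

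The next 5 lay between 11.1 and 16.5 TPM on average. Trim30d (chr7:104470014-104507849), the close relative of Trim30a, stood at 23.8, 12.7 and 13.1 TPM. Trim8 (chr19:46501702-46516848), which acts on TAK1 and on SOCS1, stood at 17.0, 11.9 and 13.9 TPM. Trim12a (chr7:104299894-104315466), a mouse relative of the retroviral restriction factor TRIM5 of primates, stood at 16.2, 10.9 and 11.0 TPM. All 3 were highest in replicate 1, as was the median gene. Trim41 (chr11:48806404-48817353), a ligase first described as acting on protein kinase C, stood at 13.8, 8.96 and 12.0 TPM. Trim26 (chr17:36837134-36859398), which promotes the degradation of IRF3 in the nucleus, stood at 15.0, 8.65 and 9.61 TPM. Trim41 was the higher one of this pair in replicates 2 and 3 and Trim26 in replicate 1.

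Between 5 and 10 TPM lay members of several branches. The chromosome 7 genes Trim30c, Trim12c and Trim34a are described with their cluster below. Trim27, a PRY-SPRY member also known as the Ret finger protein, had 7.81 ± 1.34 TPM (SD, n = 3). Trim44, which carries a zinc finger of the ubiquitin protease type in place of the RING, had 7.47 ± 1.41 TPM. Trim13, anchored in the endoplasmic reticulum membrane, had 6.38 ± 2.03 TPM. Trim33, the co-regulator TIF1-gamma that binds Smad4, had 5.51 ± 1.18 TPM. Trim47 had 5.45 ± 0.888 TPM. Over the 29 pairs of neighbours in the order of levels, the mean difference exceeded its own SD between libraries in 13, so most adjacent places are not resolved.

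From 1 to 5 TPM lay 12 members of varied roles. Trim21, the cytosolic antibody receptor, had 4.53 ± 1.45 TPM. Trim56, which acts on the cGAS and STING pathway, had 3.91 ± 0.864 TPM. Trim65, which activates the RNA sensor MDA5, had 2.33 ± 0.445 TPM. Trim23, whose C-terminal part is an ARF GTPase domain and which modifies NEMO, had 2.22 ± 0.619 TPM. These 4 act in the sensing of nucleic acids or antibodies or in the signalling that follows, as do Trim25 and Trim14 among the 10 highest. Trim3, an NHL repeat protein first found in brain, had 3.98 ± 0.969 TPM. Trim11 had 3.57 ± 0.699 TPM. Trim37, the MATH domain member mutated in mulibrey nanism, had 3.50 ± 0.895 TPM. Trim24, the co-regulator TIF1-alpha, had 2.72 ± 0.602 TPM, which makes it the lowest of the 3 expressed co-regulators. Trim32, an NHL repeat protein mutated in a limb-girdle muscular dystrophy, had 1.423 ± 0.441 TPM. Trim16, which takes part in the autophagy of damaged lysosomes, had 1.31, 0.840 and 0.930 TPM.

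Against the median gene, 5 of the 30 expressed members stood above and 7 below, while 18 were without a call. The call required a level more than 2-fold from the median gene in limma's moderated test against a band of 1 on the log2 scale, with Benjamini-Hochberg adjustment over 9123 genes, and over all of them it named 26.3% above and 24.5% below. The 5 above were Trim30a at 2.36 ± 0.09 (SE, n = 3 libraries; limma adjusted p = 1.3e-05), Trim25 at 2.32 ± 0.06, Trim35 at 1.49 ± 0.06, Trim28 at 1.31 ± 0.06 and Trim14 at 1.26 ± 0.06 on the log2(TPM + 0.1) scale. All 5 were above the band in all fits that left out 1 library. The shares of all genes in those fits were 25.2, 25.7 and 26.1% above and 23.1, 23.6 and 24.0% below, without replicates 1, 2 and 3. With no 2-fold band 12 were above and 15 below (46.1% of all genes each way). The 7 below were Trim24 at -1.37, Trim36 at -1.50, Trim65 at -1.58, Trim23 at -1.67, Trim5 at -1.82, Trim32 at -2.28 and Trim16 at -2.70. The set of members called changed with the tables and filters used. With the second set of tables Trim30a and Trim25 alone were called above and 7 of 26 members below, beside 24.1 and 18.5% of all genes. Of the 7 named below, Trim24, Trim36 and Trim65 were the 3 tested there, and all 3 were below again. The other 4 called below there were Trim3, Trim56, Trim11 and Trim37. With no filter on low values 16 members were above (34.7% of all genes) and 19 below (38.0%). Of these 19, 18 had not been tested with the filter, and of the 7 named below Trim16 alone was called. With a minimum of 5 TPM Trim30a and Trim25 were above (22.3%) and Trim33 and Trim47 below (8.74%), of 18 tested. With TPM rescaled over protein-coding genes 7 were above (28.6%) and 13 below (29.2%), of which 8 had not been tested before. With a pseudocount of 1, 5 were above (24.9%) and 5 below (20.1%). Of the 12 interferon-inducible members tested, 3 were above (Trim30a, Trim25 and Trim14), 1 was below (Trim5) and 8 were not called, with a median of 10.5 TPM. Of the co-regulators, Trim28 was above when all its transcripts were counted, Trim24 below, and Trim33 not called at -0.38 ± 0.05. Trim30d, at 1.14 ± 0.09, missed the threshold over all 3 libraries (limma adjusted p = 0.157). Without replicate 3 its level of 1.25 passed (limma adjusted p = 0.029).

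**Figure D2:**
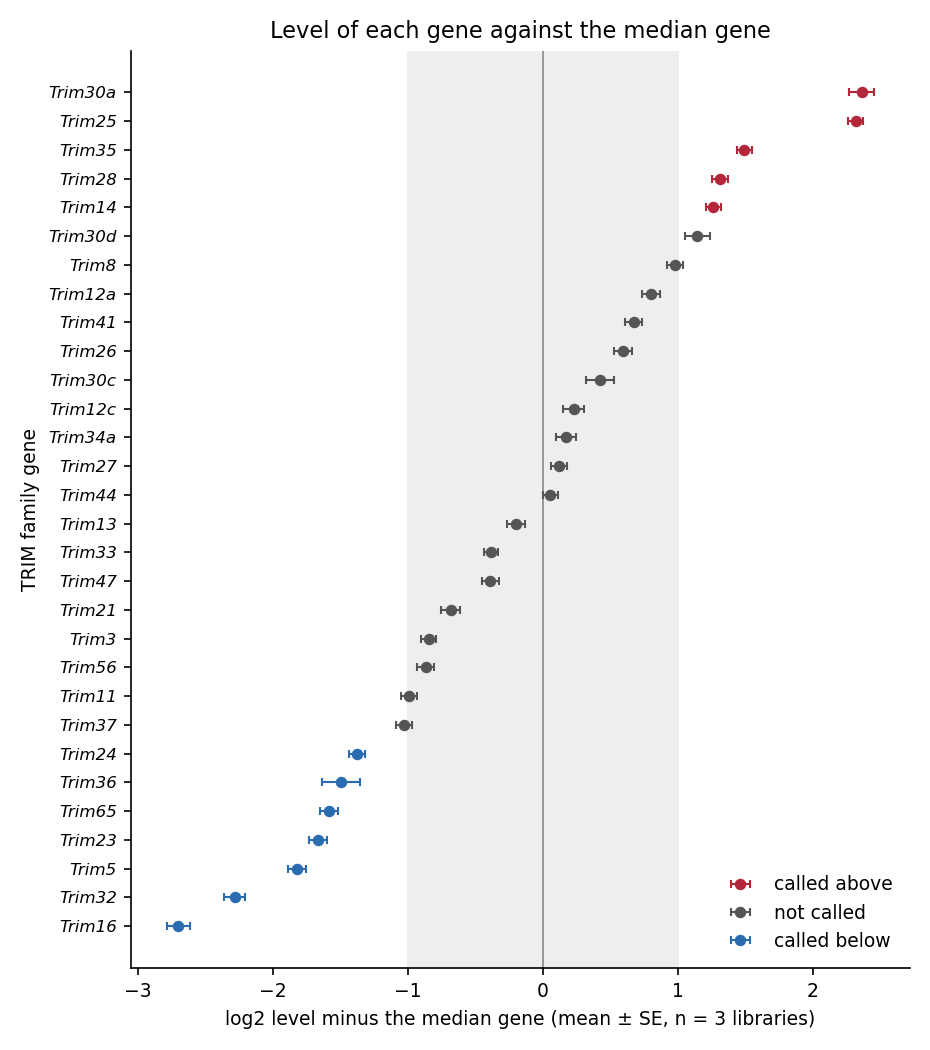
Level of each expressed TRIM gene on the log2(TPM + 0.1) scale minus the library's median gene (points, mean of 3 libraries, bars, SE), with the 2-fold band in grey. Red marks the 5 genes called above, from 1.26 for Trim14 to 2.36 for Trim30a, blue the 7 called below, down to -2.70 for Trim16, and grey those not called.

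A cluster of 10 TRIM genes occupies 289.1 kb of chromosome 7 (chr7:104218793-104507849), with 8 other annotated genes inside, 0 of them protein-coding. It holds the Trim30 genes, the mouse relatives of TRIM5 (Trim5, Trim12a and Trim12c), Trim34a, Trim34b and Trim6. It took 33.0, 28.9 and 26.6% of all TRIM counts in replicates 1, 2 and 3. Its members ranged from 0.05 TPM for Trim34b to 38.6 TPM for Trim30a on average. Trim30a alone took 52.1, 51.6 and 50.9% of the cluster's counts, and Trim30d 16.2, 15.7 and 15.6%. Trim12c, which with TRAF6 promotes interferon and NF-kB signalling in mice, took 11.6 ± 0.705% (SD, n = 3) and stood at 12.3, 6.32 and 7.48 TPM. Trim34a took 7.43 ± 0.221% and stood at 11.4, 6.63 and 6.85 TPM. Trim30c took 5.67 ± 0.471% and stood at 14.1, 8.33 and 7.41 TPM. Trim12c thus had more counts than Trim30c and a lower mean TPM, and TPM divides by length.

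At the low end of the cluster, Trim5 stood at 2.65, 1.51 and 1.82 TPM, and Trim12a, with the same 50 bases around its match, was higher in every library. Trim30b stood at 0.47, 0.28 and 0.31 TPM from 124, 119 and 131 counts. Trim6, a ligase that supports interferon signalling through unanchored ubiquitin chains, stood at 0.07, 0.03 and 0.07 TPM from 21, 16 and 31 counts. Trim34b stood at 0.07, 0.05 and 0.03 TPM from 10.03, 12.4 and 6.8 expected counts. These 3 were low in all 3 libraries. The pseudogene Trim30e-ps1 was at 0 counts in every library. Trim34a and Trim34b thus differed widely although 48.7% of the distinct 31-base words of Trim34a occur in Trim34b. Trim34a also shared 23.5% of its exonic bases with Gm47248 on the opposite strand, which had 0.62 TPM.

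Because the copies share sequence, their split was checked against the second set of tables. Words of 31 bases shared with any other gene made up 69.1% of Trim34b, 68.5% of Trim34a, 53.3% of Trim5, 48.1% of Trim12c and 16.1% of Trim12a, and 4.60 to 11.9% of the Trim30 genes. Trim12c and Trim5 shared 1402 words with each other. In the second tables Trim30a took 51.4%, Trim30d 15.8%, Trim12c 11.2%, Trim34a 7.31%, Trim30c 6.11%, Trim12a 4.90% and Trim5 2.60% of the cluster's counts, the same order as in the first tables. The low copies moved more: Trim6 had 3.03 times and Trim30b 1.56 times the counts of the first tables, where the median ratio over expressed protein-coding genes was 1.085. The values of Trim6 and Trim30b are uncertain for this reason. Trim34b had 1.115 times its first counts, near that median, and its value is uncertain because of the words it shares.

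**Figure D3:**
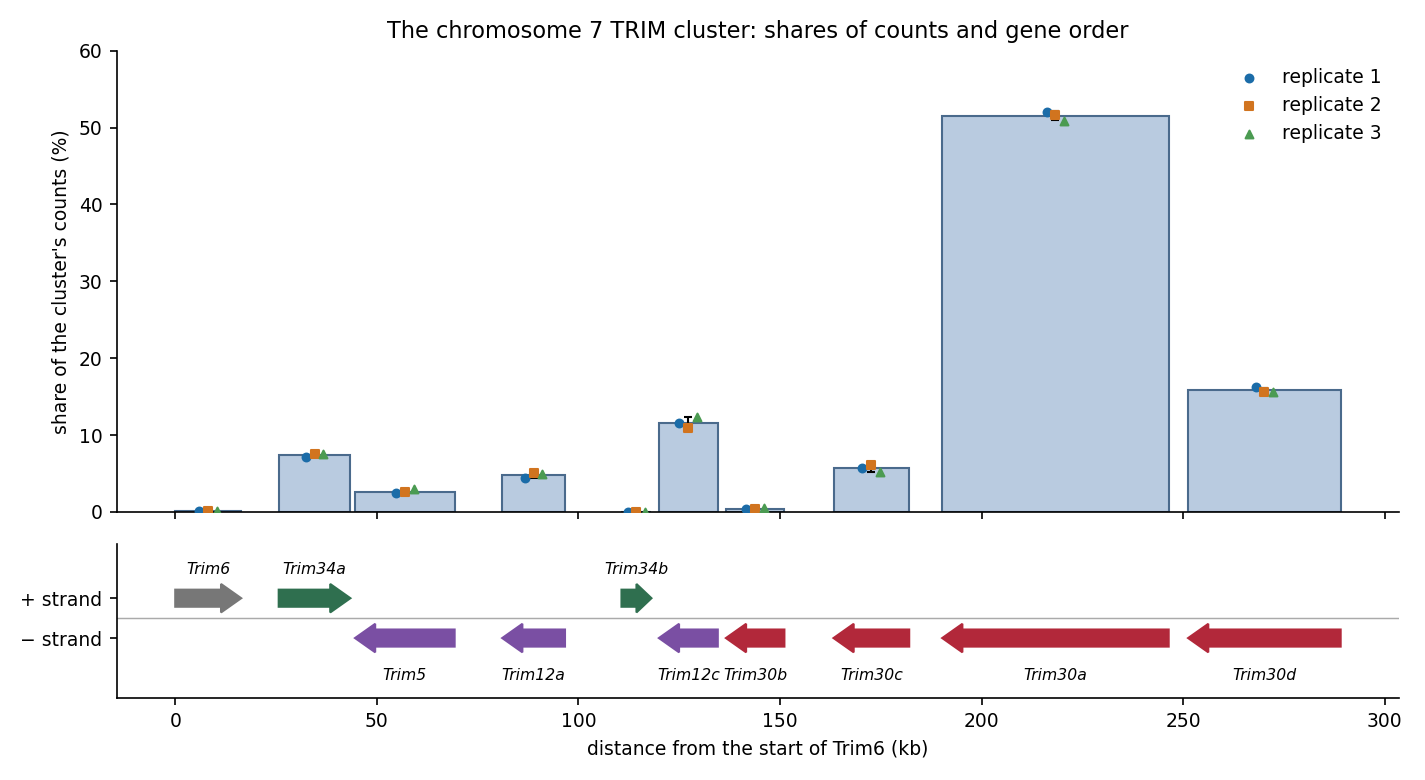
Share of the cluster's counts for each of its 10 TRIM genes (upper panel: bars, mean, error bars, SD, points, the 3 libraries) above the gene order, as distance from the start of Trim6, with arrows pointing along the strand. Trim30a holds 50.9 to 52.1% in each library, and Trim6, Trim34b and Trim30b are barely above 0.

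Most genes of the cluster also shared the order of the libraries. In TMM-scaled CPM (counts normalised for depth and composition), 6 of its 7 expressed genes were highest in replicate 1. Over all 11557 protein-coding genes compared, 29.6% were. Replicate 3 was the lowest for 6 of the 7 and for 3920 of the 11557 genes. Trim30a had 267, 229 and 199 CPM in replicates 1, 2 and 3. Trim30d had 83.1, 69.3 and 60.7 CPM. Trim30c had 29.3, 27.1 and 20.2 CPM. The exceptions were Trim12a, at 22.4, 22.5 and 19.5 CPM, which was highest in replicate 2, and Trim5, at 12.5, 11.3 and 11.4 CPM, which was lowest in replicate 2. The ratio of replicate 1 to replicate 3 had a median of 1.26 in the cluster, against 0.993 over all protein-coding genes, and ran from 1.1 to 1.45. Replicate 1 was the highest and replicate 3 the lowest for 5 of the 7, as for 15.6% of all genes.

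Interferon-inducible members outside the cluster varied less alike. Trim21 had 20.7, 18.4 and 16.6 CPM and Trim26 48.2, 46.0 and 43.8 CPM, both highest in replicate 1. Trim25 had 296, 313 and 313 CPM and Trim14 had 29.4, 34.3 and 29.9 CPM, both lowest in replicate 1. Trim56 had 48.7, 51.9 and 46.0 CPM and was highest in replicate 2. Of all 12 expressed interferon-inducible members 8 were highest in replicate 1, 4 in replicate 2 and 0 in replicate 3. Of those 8, 6 are the cluster genes described above. Over all protein-coding genes 35.1% were highest in replicate 2 and 35.2% in replicate 3. Of the other 18 expressed members 6 were highest in each library, and their median ratio of replicate 1 to replicate 3 was 0.967. Ifnb1, the interferon beta gene, had 39.2, 39.2 and 8.21 CPM in the same libraries, so it too was lowest in replicate 3. Its part in the order of the TRIM genes was not tested.

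**Figure D4:**
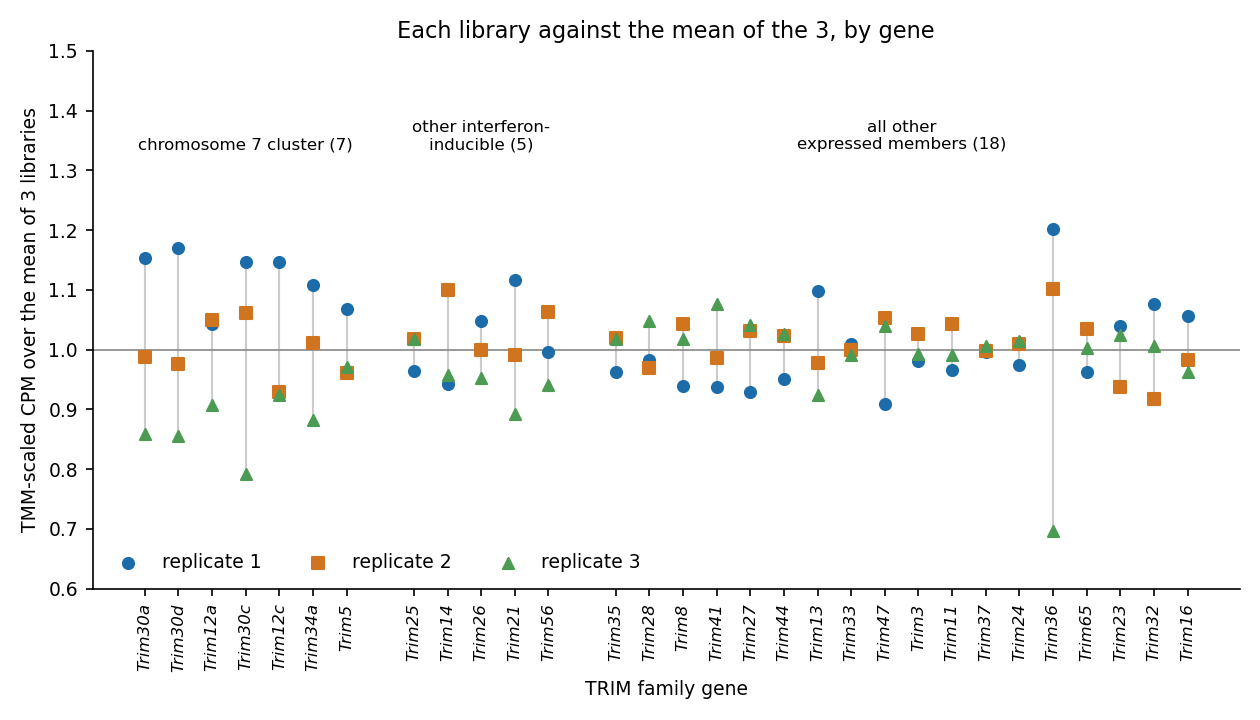
TMM-scaled CPM in each library divided by the gene's mean over the 3 libraries, for the 7 expressed genes of the chromosome 7 cluster, the 5 other expressed interferon-inducible members and the 18 remaining expressed members. Replicate 1 (circles) is on top for 6 of the 7 cluster genes and for 6 of the 18 others, and Trim36 has the widest spread.

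Spread between libraries was small for most of the family. The biological coefficient of variation (BCV, estimated by edgeR) had a median of 0.0969 over the 30 expressed members, beside 0.102 over 9121 protein-coding genes of at least 1 TPM. The lowest values were those of Trim33 (0.0811), Trim37 (0.0813) and Trim44 (0.0845). Trim37 had 29.6, 29.7 and 29.9 CPM, Trim33 had 45.3, 44.9 and 44.5 CPM, and Trim44 had 66.4, 71.5 and 71.7 CPM. The highest values were those of Trim36 (0.193), Trim16 (0.145) and Trim30c (0.141). Without replicate 3 the BCV of Trim36 was 0.0946 and that of Trim30c 0.0897, so both values rest on that library. Trim36, known from sperm and from microtubule binding through its COS box, had 18.2, 16.6 and 10.5 CPM from 1194, 1143 and 742 counts, so replicate 3 stood clearly below the others. In TPM it had 3.81, 2.26 and 1.71. Trim16 had 6.29, 5.85 and 5.74 CPM from 414, 402 and 405 counts, and its highest CPM was 1.10 times its lowest. Its BCV lay below the value of 0.184 that edgeR's trend gives for genes of like abundance. The BCVs of Trim36 and Trim30c lay above theirs, 0.114 and 0.104.

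Several TRIM genes had much of their TPM in transcripts that are not annotated as protein-coding. By mean over the libraries, the transcript with the largest share of a gene's TPM was protein-coding for all 30 expressed members in both sets of tables. It was the same transcript in all 3 libraries for 27 and in both sets of tables for 29. It carried at least 90% of the gene's TPM for 8 members, among them Trim30a (99.5%), Trim8 (98.9%) and Trim35 (97.5%), and less than 50% for 5. For Trim28, retained-intron and processed transcripts took 53.5% of the TPM and 13.9% of the counts, and Trim28-203, a retained-intron transcript of 565 bases, had 40.4, 42.8 and 35.9% of the gene's TPM. For Trim12a such transcripts took 49.6% of the TPM and 34.6% of the counts, and for Trim26 30.2% of the TPM and 25.98% of the counts. In replicate 2 a processed transcript of Trim12a led with 44.7% of the TPM, against 44.1% for its main protein-coding transcript. In Trim14 a processed transcript of 670 bases took 24.3, 3.26 and 12.4% of the TPM, the widest range among these.

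Counting only transcripts annotated as protein-coding, Trim28 stood at 10.6, 6.48 and 8.31 TPM and had place 10 of the 30 by mean, against place 4 by gene TPM. Trim12a stood at 8.44, 5.47 and 5.35 TPM and had place 15 against place 8. Trim30a, Trim25 and Trim35 kept places 1 to 3, at 38.3 ± 14.1, 36.4 ± 8.04 and 20.1 ± 4.0 TPM (SD, n = 3). Trim14 stood at 14.9, 12.45 and 12.2 TPM. The median gene, over all transcripts, stood at 9.08, 5.76 and 6.86 TPM. Trim28 was thus less than 2-fold above it in every library, and Trim14 in replicates 1 and 3. No level test was run on protein-coding transcripts alone, so the calls of Trim28 and Trim14 apply to all transcripts of each gene. The second tables gave similar shares of noncoding transcripts for Trim28 (45.5%) and Trim12a (44.1%) and lower ones for Trim26 (6.18%) and Trim47 (4.74%, against 27.0% in the first). For Trim25 the split also differed. Its 5590-base transcript carried 88.3% of the gene's TPM in the first tables and 61.7% in the second, and the rest was in a 1433-base transcript, also protein-coding.

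**Figure D5:**
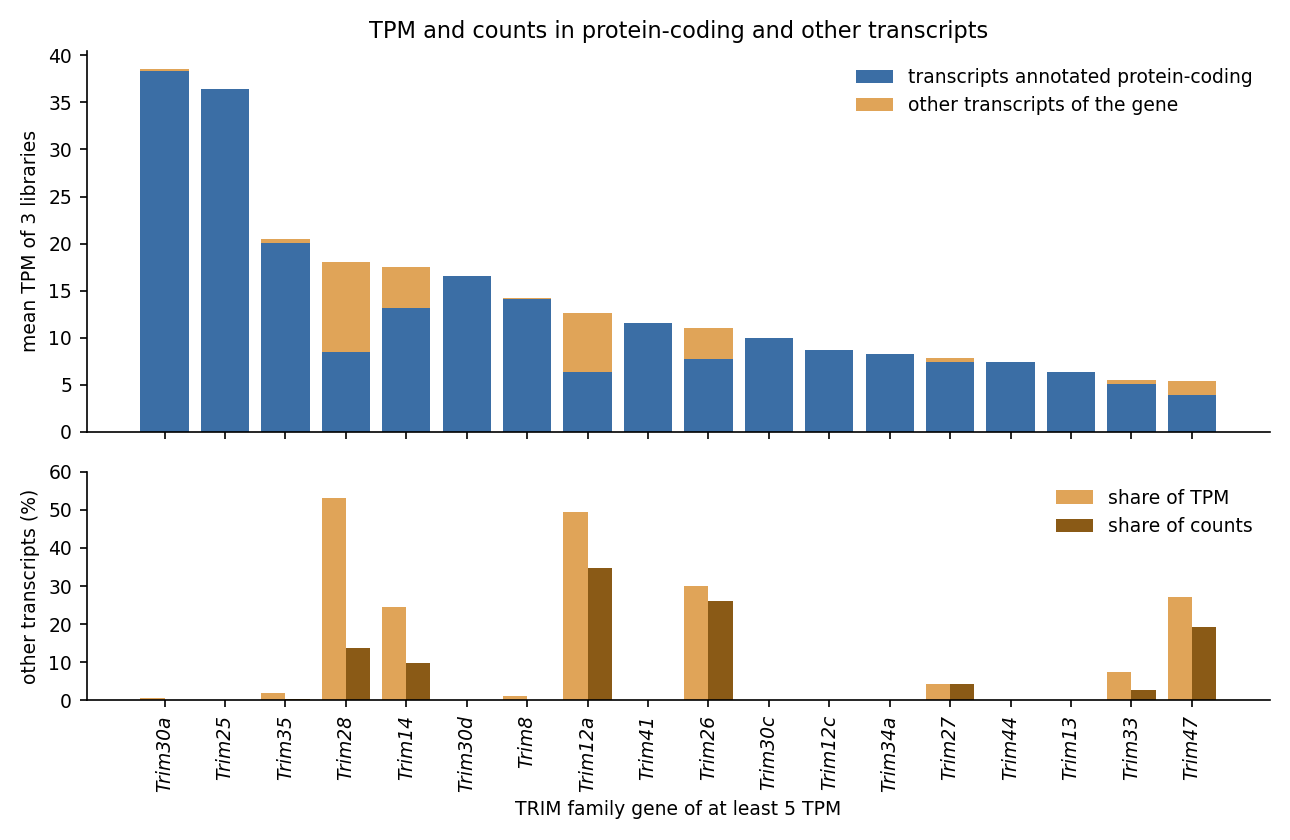
Upper panel: mean TPM of the 18 TRIM genes with at least 5 TPM, split into transcripts annotated as protein-coding (blue) and other transcripts (orange). Lower panel: share of the other transcripts in TPM and in counts, which differ most for Trim28 (53.5% of TPM, 13.9% of counts).

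Between 0.2 and 1 TPM lay Trim62, Trim39, Trim59, Trim68, Trim30b, Trim2, Trim45 and Trim7, from 0.267 to 0.853 TPM. Of the 30 members under 0.2 TPM, 7 (Trim6, Trim34b, Trim46, Trim15, Trim17, Trim29 and Trim66) had more than 3 counts in every library. Another 8 (Trim43c, Trim69, Trim38, Trim9, Trim63, Trim67, Trim75 and Trim10) had between 0 and 4 counts per library. The remaining 15 (Trim31, Trim40, Trim42, Trim43a, Trim43b, Trim50, Trim52, Trim54, Trim55, Trim58, Trim60, Trim61, Trim71, Trim72 and Trim80) had 0 counts in all libraries, which allows up to 3 counts each, or 0.0469, 0.0417 and 0.0433 CPM. For 9 of these 15 the second tables also gave 0, and for 3 more at most 3 counts in a library. The other 3 exceeded that limit there, Trim71 with 7.01, 1.0 and 5.0 counts, Trim52 with 7.35, 0 and 0 counts, and Trim43b with 3.37, 3.41 and 2.06 counts. The 15 include the muscle ligase genes Trim54 and Trim55, and in the same libraries the 5 muscle markers had at most 0.00333 TPM on average. Trim58 and Trim10, known from red cell precursors, had at most 1 count in a library, and the 7 erythroid markers had at most 0.02 TPM on average. These intervals and limits cover counting error only.

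The genes that TRIM proteins work with were described from companion lists, to be read beside the 26.3% of all genes called above and 24.5% called below. Of 12 ubiquitin chain genes 9 were called above the median gene and 0 below, among them the ubiquitin gene Ubb (232 ± 55.6 TPM; SD, n = 3) and Ube2d3 (111 ± 23.7 TPM), a conjugating enzyme used by many RING ligases. Of 19 nucleic acid and Toll-like receptor signalling genes 7 were above and 3 below, with Irf7 (51.6 ± 12.7 TPM), the antiviral Zc3hav1 (37.3 ± 8.86 TPM) and Tab2 (26.3 ± 6.88 TPM) the highest. The 3 below were Tab3 and Tab1, which encode partners of the kinase TAK1, and Cgas, the gene of the DNA sensor. Among the known partners, named after their values were seen, Tab2 was called above at 1.84 on the log2 scale and Tab3 below at -1.45, beside their regulator Trim30a at 2.36. The RIG-I gene Ddx58 was called above at 1.60 and had 22.9 ± 9.07 TPM, and the MDA5 gene Ifih1 was not called at 1.13 and had 17.0 ± 8.59 TPM. Of 12 corepressor partners of Trim28, Trim24 and Trim33, 3 were above, which is near the share of all genes, and 0 below. These 3, the chromatin remodelling genes Chd4 and Chd3 and the HP1-gamma gene Cbx3, led at 44.1 ± 9.92, 17.6 ± 4.18 and 16.9 ± 3.67 TPM. Among 12 relatives that carry other names, 3 reached 1 TPM. These were Pml, the organiser of nuclear bodies (9.94 ± 2.90 TPM), Mid1, a microtubule-bound ligase (6.34 ± 2.32 TPM), and Mefv, the pyrin gene (2.90 ± 1.23 TPM), and Mefv was called below the median gene. Medians were 32.5 TPM for the ubiquitin list, 12.2 TPM for the signalling list and 8.24 TPM for the corepressor list, beside 6.93 TPM for the 30 expressed TRIM genes and 7.24 TPM for all expressed protein-coding genes.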

How the data were processed

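For each of 3 libraries, gene and transcript tables were used. Per the file headers, the deposited gene and transcript tables give an expected count and TPM, in columns named as RSEM writes them, and the gene tables a posterior SD of the count, used as a score of its uncertainty. The deposited transcript tables also give each transcript's percent of its gene's TPM. A second deposited transcript table per library, whose column names are those of kallisto, gives estimated counts and TPM, which were summed per gene. Coordinates are those of mm10 and GENCODE M21, per the labels and the deposited description files. Tool versions and strandedness were not given in the sources used here. Names, biotypes and coordinates were taken from GENCODE M21 (GRCm38).

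Rows that are not annotated genes held 0.260, 0.0933 and 0.0577% of the counts and were left out. The level test used limma 3.58.1 in R 4.3.3 (intercept-only, treat with a band of 1, trended prior). Its values were log2(TPM + 0.1) less each library's median of protein-coding genes with a mean of at least 1 TPM, with Benjamini-Hochberg adjustment at 0.05. Fold differences on that scale understate those of low genes. Expected counts were rounded, filtered with filterByExpr and scaled by TMM in edgeR 4.0.16, which gave the BCV of 13026 genes. Counts of each pair of libraries differed beyond sampling noise (chi-square of 118 to 197 per gene), and each was counted as 1 sample. Differences in library preparation also raise this value, so it cannot show that the cultures were independent. The fits were tested on simulated data. Shared 31-base words were counted over all GENCODE M21 transcripts, and promoter windows came from RefSeq. Python 3.11.15 with numpy 2.4.6, pandas 2.3.3 and scipy 1.17.1 was used for the rest.

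The members, groups, lists and tests were chosen with earlier results of these data known. Values per library were given for members of at least 10 TPM, the chromosome 7 cluster and the 3 highest and 3 lowest BCV, mean and SD for other members of at least 1 TPM, and the 3 highest genes of each of 4 companion lists. One of these genes is not reported here. No member's level differed by more than 1 on the log2 scale between the 2 sets of tables, so none was named for that. Of the marker lists, Ighm has no protein-coding biotype and was left out. Alternatives were the second tables, other minimum levels and pseudocounts, TPM rescaled over protein-coding genes, no 2-fold band, and each library left out.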

Additional observations from a re-analysis of the deposited data

How the results depend on the processing

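No paired analysis was possible because all 3 libraries belong to 1 group. Leaving out 1 library gave 5 to 6 members called above the median gene, 6 to 7 below and 29 to 30 of at least 1 TPM. Trim16 dropped out without replicate 1, and Trim30d was the only member whose call changed. Other alternatives move the median gene itself. TRIM levels moved by a median of 1.36 on the log2 scale without a filter on low values, -0.93 with a minimum of 5 TPM, 0.35 with TPM rescaled over protein-coding genes and -0.38 with the second tables. The counts called above were 16 without the filter, 2 with a minimum of 5 TPM, 2 with the second tables and 12 with no 2-fold band, beside 5. The counts below were 19 without the filter, 2 with a minimum of 5 TPM, 13 with rescaled TPM and 15 with no band, beside 7. With a minimum of 5 TPM 18 members were tested. Signs turned for members near the median gene. With a minimum of 5 TPM these were Trim12a (-0.12), Trim41 (-0.25), Trim26 (-0.33), Trim30c (-0.50), Trim12c (-0.70), Trim34a (-0.75), Trim27 (-0.81) and Trim44 (-0.87). With the second tables they were Trim12c (-0.21), Trim34a (-0.22), Trim27 (-0.32) and Trim44 (-0.40). Without the filter they were Trim13 (1.16), Trim33 (0.98), Trim47 (0.97), Trim21 (0.68), Trim3 (0.52), Trim56 (0.49), Trim11 (0.37) and Trim37 (0.33), and with rescaled TPM Trim13 (0.15). Trim30a and Trim25 were called above under every alternative run. Trim24 and Trim36 were no longer called below with a pseudocount of 1 (-1.14 and -1.22) or rescaled TPM (-1.052 and -1.18). Without the filter 6 of the 7 lost the call, namely Trim24 (-0.013), Trim36 (-0.135), Trim65 (-0.222), Trim23 (-0.307), Trim5 (-0.459) and Trim32 (-0.921), each with a limma adjusted p of 1. Trim35 (1.007 and 0.566), Trim28 (0.656 and 0.388) and Trim14 (1.043 and 0.337) lost theirs with the second tables and with a minimum of 5 TPM. Members under 0.2 TPM rest on at most 31 counts per library, and differences among them were not tested.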

Other observations

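Trim59, an endoplasmic reticulum membrane ligase under 1 TPM and named after its values were seen, was highest in replicate 3, unlike the expressed chromosome 7 cluster genes. So were Trim62, Trim39, Trim68, Trim2, Trim45 and Trim7, the other members from 0.2 to 1 TPM outside the cluster. Over all protein-coding genes 35.2% were highest in replicate 3. Trim59 had 2.05, 2.59 and 4.42 TMM-scaled CPM in replicates 1, 2 and 3, from 135, 178 and 312 counts, and a BCV of 0.304. Trim39 and Trim62, PRY-SPRY members of similar abundance, had 276, 252 and 305 counts and 328, 333 and 410 counts in the same libraries. Trim32 changed its leading transcript between libraries: Trim32-201 had 80.9, 41.6 and 69.4% of the gene's TPM, from 511, 455 and 513 counts for the gene, and another protein-coding transcript of nearly the same length had the rest.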
